A study of Mus musculus with 8 samples.

Results

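The lineage genes examined here were 34 genes named for the 3 germ layers of the mouse embryo, 12 of endoderm, 12 of mesoderm and 10 of neurectoderm. Of these, 33 had a probe set with their symbol alone among the 19938 genes tested, and T, the brachyury gene, is not analysed here. They were measured on 8 expression arrays of a mouse pre-iPSC clone (MaF pre-iPSC9P2, clone C9), that is, of partly reprogrammed cells that have not reached the induced pluripotent state. All cells grew on feeder cells in medium for mouse embryonic stem cells and were collected on days 3, 4, 5 and 6. The 4 untreated arrays came from cells without vitamin C (Vc), and the other 4 from cells that received it at 50 µg/ml from day 2 on, so each treatment has 1 array a day. The data come from 1 clone, and nothing in the labels states that the days were separate cultures. The p-values therefore reflect the scatter of 8 arrays and may hold technical scatter alone.

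The germ layers form when cells of the epiblast pass through the primitive streak and become mesoderm or definitive endoderm, while those that remain give rise to ectoderm and, from it, the neural plate. Nodal, BMP and WNT signals induce the streak, and the secreted antagonist Cer1 limits those of Nodal and BMP. Gata4, Gata6 and Sox17 also mark the primitive endoderm, an extra-embryonic layer that separates from the epiblast before implantation. In cultures of pluripotent or partly reprogrammed cells, these genes are the usual readout of which lineages, if any, are being transcribed.

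Values are log2 RMA values, a summary of the brightness of the probes of a gene after the arrays were set on a common scale. Probe sets differ in how strongly they bind, so levels are compared between arrays and not between genes. As a rough guide to background, 1027 olfactory receptor genes had a median of 1.94 and a 95th percentile of 3.30, and 2 members, Afp and Ttr, had means below that percentile. Both are liver and yolk sac products, and their weak signals can hold little beyond background. Single arrays of Cer1, Mesp1, Kdr, Tubb3 and Olig2 also lay below that percentile, with lowest values of 3.21, 3.10, 3.15, 3.26 and 3.18. Dab2 and Foxf1 had a second, dimmer probe set, with means of 1.84 and 3.19 against 5.89 and 4.33 for the ones used.

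Pairwise correlations between arrays over all probe sets were 0.977 to 0.994. Pou5f1, the pluripotency factor also known as Oct4, lay between 11.9 and 12.1 on every array, and the mean of 20 pluripotency markers ran from 5.74 to 6.08 untreated and from 6.21 to 7.20 with vitamin C. Of these 20 markers 5 were higher and 0 lower with vitamin C, against 0.537% and 0.216% of all genes. In the slope on day shared by both treatments 10 of them rose and 1 fell, against 5.03% and 5.21% of all genes. Markers of feeder cells or fibroblasts were measurable although the labels state that feeders were removed: the 28 of 29 with a value had a mean log2 value of 7.54 on day 3 and 6.43 on day 6 untreated, and of 6.99 and 6.32 with vitamin C. Summed on the linear scale they ran from 6216 to 11053 units untreated and from 5550 to 6823 with vitamin C, and no marker can be at 0 on a log scale. Of these 28 markers, 22 fell over days in the slope shared by both treatments, with a median of -0.32 per day, and 5 were lower with vitamin C. Among all genes 5.21% fell in that slope and 0.216% were lower with vitamin C. The part of these markers in the results on lineage genes was not tested except where a value is given. Which cells gave the signal of these markers was not tested. Where a sample holds several cell types, fewer cells of a type and less RNA per cell cannot be told apart.

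**Figure D1:**
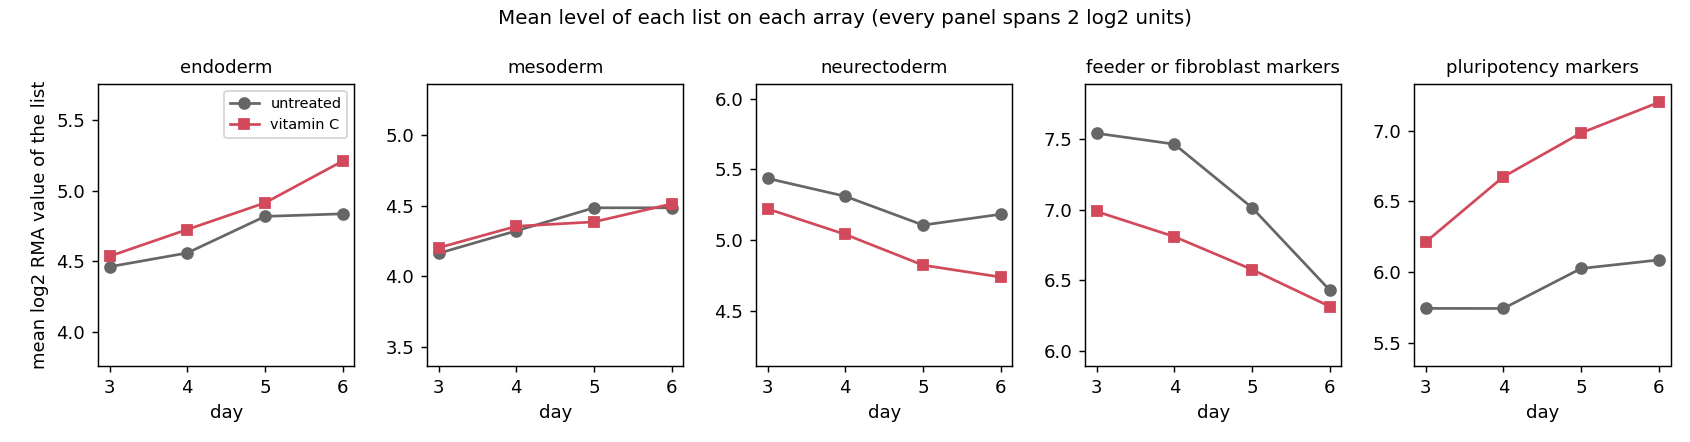
Mean log2 RMA value of the 12 endoderm, 11 mesoderm and 10 neurectoderm genes and of the 2 marker lists (y axis, 2 log2 units in every panel) against day (x axis), with grey circles for untreated and red squares for vitamin C arrays, 1 array a point. The endoderm mean went from 4.46 to 4.84 untreated and from 4.53 to 5.21 with vitamin C, while the neurectoderm mean went from 5.44 to 5.18 and from 5.22 to 4.74.

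Cer1 and Eomes were the 2 members whose rise with day passed the adjusted p threshold in both the untreated and the vitamin C time course. The upstream sequences of these 2 genes are shown for that reason. Other members, among them Gata4, Gata6 and Sox17, also had upward slopes in both courses without passing in both. RefSeq entries for the region upstream of the start were at hand for 24 of the 34 genes. The sequences are the 250 bases before the start, 5′ to 3′ on the strand of the gene, from RefSeq on GRCm38.p6, with Cer1 at chr4:82885152-82885401 on the minus strand and Eomes at chr9:118477939-118478188 on the plus strand. Capitals mark CCAAT on either strand.
Cer1: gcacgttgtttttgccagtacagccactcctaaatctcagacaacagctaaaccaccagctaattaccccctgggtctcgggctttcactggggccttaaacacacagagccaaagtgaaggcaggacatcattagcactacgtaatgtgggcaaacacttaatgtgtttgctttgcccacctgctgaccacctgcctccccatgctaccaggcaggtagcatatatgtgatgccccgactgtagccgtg
Eomes: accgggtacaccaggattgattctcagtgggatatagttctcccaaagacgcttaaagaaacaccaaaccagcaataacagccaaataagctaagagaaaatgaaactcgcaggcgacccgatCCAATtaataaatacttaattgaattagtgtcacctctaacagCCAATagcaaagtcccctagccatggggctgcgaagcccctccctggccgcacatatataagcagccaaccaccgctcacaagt

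Both strands of these windows were searched for 6 short motifs, namely the AGATAA of zinc finger factors such as Gata4, the ACAAAG of SOX factors, AATNCACA (FOXH1), AGGTGTGA (T-box factors), the CCAAT box and the TATA box letters TATAAA, with overlaps allowed. The Cer1 window held none of these letters and the Eomes window held CCAAT at 2 places. Among 32851 such windows of all genes, CCAAT occurred in 33.8%, ACAAAG in 16.5%, TATAAA in 12.4%, AGATAA in 9.99%, AATNCACA in 3.18% and AGGTGTGA in 1.12%. The Cer1 window had 5 CpG and 51.6% G or C, and the Eomes window 8 CpG and 46.4%. These matches describe the letters in the window only.

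The first comparison asked which lineage genes changed from day 3 to day 6, in a slope shared by both treatments (limma, treatment and 1 slope on day). Of the 33 members 7 rose, 2 fell and 24 did not pass an adjusted p of 0.05. Among all genes 5.03% rose and 5.21% fell. The 7 were Cer1, Gata4, Gata6 and Sox17 of endoderm and Eomes, Gsc and Msx1 of mesoderm, and the 2 were Nefl and Ncam1 of neurectoderm. By layer, 4 of 12 endoderm genes rose with a median slope of 0.10 log2 units per day, 3 of 11 mesoderm genes rose with a median of 0.08, and 2 of 10 neurectoderm genes fell with a median of -0.07. The median of all genes was -0.01 per day. No member of endoderm or mesoderm fell and none of neurectoderm rose, while 6, 5 and 3 members of the 3 layers had an unadjusted p under 0.05, as did 25.5% of all genes.

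This slope treats the 2 arrays of a day as independent. With day as a random block, which was added afterwards, the correlation of the 2 arrays after the slope was -0.133, which does not make the test stricter. The same 9 members then passed, with Foxa1 up and Foxf1 down as well (adjusted p = 0.0451 and 0.044). The count was lower without the first or the last day, in settings chosen after the data were seen. Without both arrays of day 3 the slope passed for 3 members (Cer1, Gata4 and Eomes). Without both arrays of day 6 it passed for 3 (Cer1, Eomes and Nefl). Calls among all genes fell as well, from 2041 to 663 without day 3 and to 109 without day 6. The middle days were not left out in this way. Whether the count rests on the ends of the time course in particular was therefore not tested. With day joined in the model by the mean of these feeder or fibroblast markers, also chosen afterwards, 0 members and 1 of all genes passed. The slopes of Cer1, Gata4, Gata6, Sox17, Eomes, Nefl and Ncam1 were then no smaller in size, for instance 1.33 per day for Cer1 (adjusted p = 0.19) and -0.91 for Nefl (adjusted p = 0.266), and those of Gsc and Msx1 were -0.0056 and -0.060. The marker mean itself fell with day in both treatments, so this model can hardly separate it from day. Neither the lost calls nor the slope sizes can therefore decide what part the markers had.

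**Figure D2:**
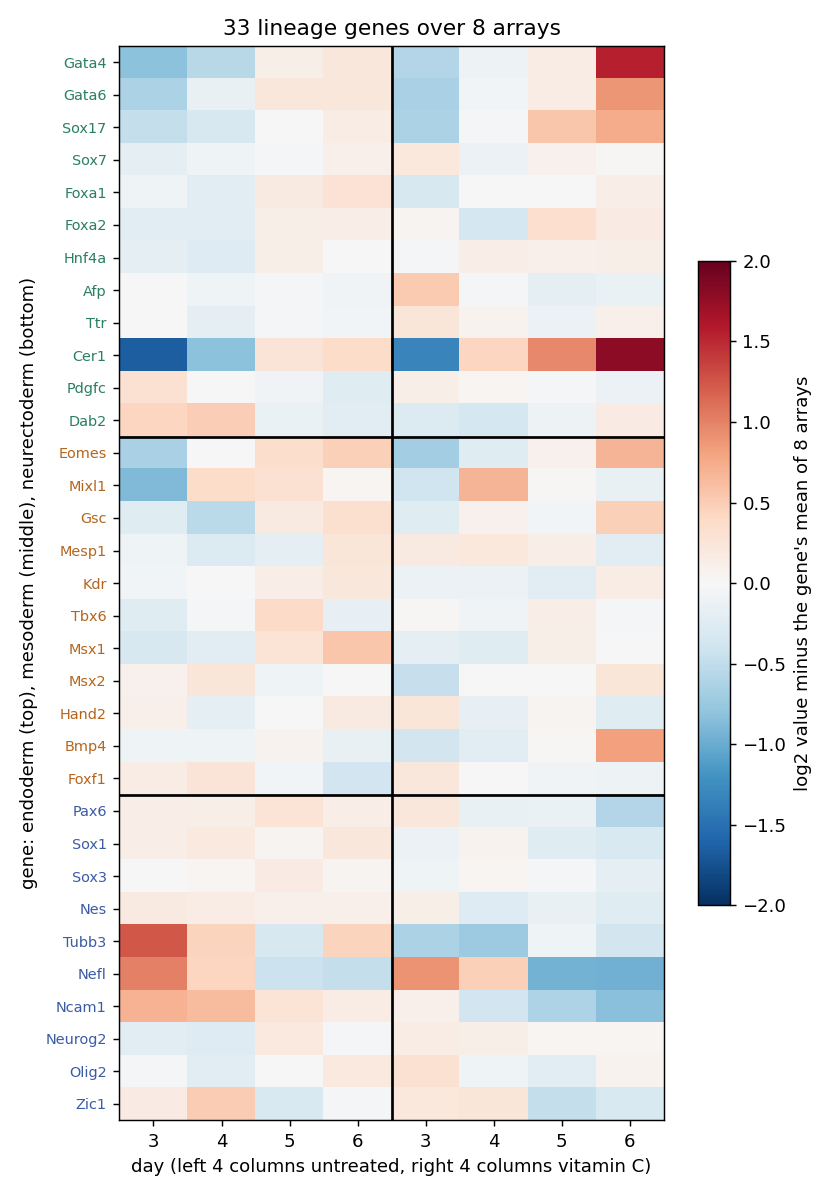
Log2 value of each of the 33 members minus its own mean over 8 arrays (colour, from -2 in blue to 2 in red), with genes as rows in the order endoderm, mesoderm and neurectoderm and arrays as columns, days 3 to 6 untreated on the left and with vitamin C on the right. Cer1, Gata4, Gata6, Sox17 and Eomes go from blue to red along both time courses, and Nefl goes from red to blue.

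Among the secreted factors, Cer1 (probe set 10514083) changed most. Cer1 encodes Cerberus, an antagonist of Nodal and BMP ligands made by the anterior visceral endoderm and by definitive endoderm. Its log2 values on days 3, 4, 5 and 6 were 3.21, 4.05, 5.11 and 5.23 untreated and 3.53, 5.29, 5.82 and 6.64 with vitamin C. Every array was higher than the one of the day before, and the vitamin C array of day 4 already lay above the untreated array of day 6. From day 3 to day 6 this was 4.05-fold untreated and 8.65-fold with vitamin C. Both folds start near background, since the 95th percentile of the olfactory receptor genes was 3.30. The untreated array of day 3 lay below it and the vitamin C array of day 3 little above it. The slope was 0.71 ± 0.11 per day untreated (log2, moderated SE, adjusted p = 0.014) and 0.99 ± 0.11 with vitamin C (adjusted p = 0.00115). The slopes did not pass as different from each other (0.27 ± 0.16, adjusted p = 0.561). The untreated slope did not pass without the array of day 3 (0.59, adjusted p = 0.254) or of day 6 (0.95, adjusted p = 0.136).

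Gata4 (probe set 10420747) encodes a zinc finger factor of primitive endoderm, gut and heart. Its values were 4.16, 4.43, 5.10 and 5.21 untreated and 4.40, 4.88, 5.13 and 6.54 with vitamin C. The vitamin C array of day 6 stood above all others, and on days 3 to 5 the time courses lay within 0.45 of each other. The slope with vitamin C was 0.67 ± 0.10 per day (adjusted p = 0.00374) and was 0.37 without that array (adjusted p = 0.135). The untreated slope of 0.38 ± 0.10 did not pass (adjusted p = 0.0932), although it did without the vitamin C array of day 5 or 6, which leave the slope as it is (adjusted p = 0.0407 and 0.0274). Nor did the difference of the slopes pass (0.29 ± 0.14, adjusted p = 0.483).

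Gata6 (probe set 10453857), the GATA factor that specifies primitive endoderm against epiblast, followed a similar course. Its values were 4.58, 5.07, 5.44 and 5.44 untreated and 4.57, 5.16, 5.36 and 6.10 with vitamin C. Both time courses ran together up to day 5. With vitamin C the slope was 0.48 ± 0.07 per day (adjusted p = 0.00393), against 0.39 without the array of day 6 (adjusted p = 0.133) and 0.47 without that of day 3 (adjusted p = 0.0586). Untreated it was 0.29 ± 0.07 (adjusted p = 0.0759), and the slopes differed by 0.18 ± 0.10 (adjusted p = 0.533).

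Sox17 (probe set 10352936) encodes an HMG box factor of definitive and primitive endoderm. Its values were 3.58, 3.73, 4.06 and 4.20 untreated and 3.42, 4.00, 4.60 and 4.80 with vitamin C. The vitamin C array was the lower one on day 3 and the higher one on the 3 later days. The slope was 0.47 ± 0.06 per day with vitamin C (adjusted p = 0.0023, and 0.40 with adjusted p = 0.0551 without the array of day 3) and 0.22 ± 0.06 untreated (adjusted p = 0.124). The slopes differed by 0.25 ± 0.09 (adjusted p = 0.341).

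The other endoderm genes did not pass in any of the 5 comparisons as designed. Sox7, a relative of Sox17, stayed between 4.34 and 4.74, and the forkhead pioneer factor genes Foxa1 and Foxa2 between 4.68 and 5.28 and between 5.06 and 5.76. The shared slopes of these 3 genes were 0.03, 0.14 and 0.12 per day, of which that of Foxa1 had an adjusted p of 0.0744. Hnf4a, a factor of visceral endoderm and liver, lay between 3.83 and 4.22. Of the products of visceral endoderm, Afp had its highest value, 3.59, in the vitamin C array of day 3 and lay between 2.88 and 3.08 elsewhere, and Ttr lay between 2.59 and 3.02.

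Pdgfc and Dab2 are listed as endoderm genes but are also transcribed in fibroblasts. Pdgfc, a ligand of the PDGF alpha receptor, went from 7.51 to 6.95 untreated and from 7.32 to 7.08 with vitamin C (shared slope -0.13, adjusted p = 0.092). Dab2, an endocytic adaptor of visceral endoderm, was 6.31, 6.38, 5.75 and 5.67 untreated and 5.62, 5.53, 5.78 and 6.05 with vitamin C. The vitamin C arrays of Dab2 were thus the lower ones on days 3 and 4 and the higher one on day 6. Its slopes of -0.25 untreated and 0.15 with vitamin C differed by 0.41 ± 0.10, which did not pass over all genes (adjusted p = 0.197). The feeder or fibroblast markers were lower with vitamin C by medians of 0.51, 0.68, 0.48 and 0.09 on the 4 days. Whether these markers bear on Pdgfc or Dab2 was not tested.

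**Figure D3:**
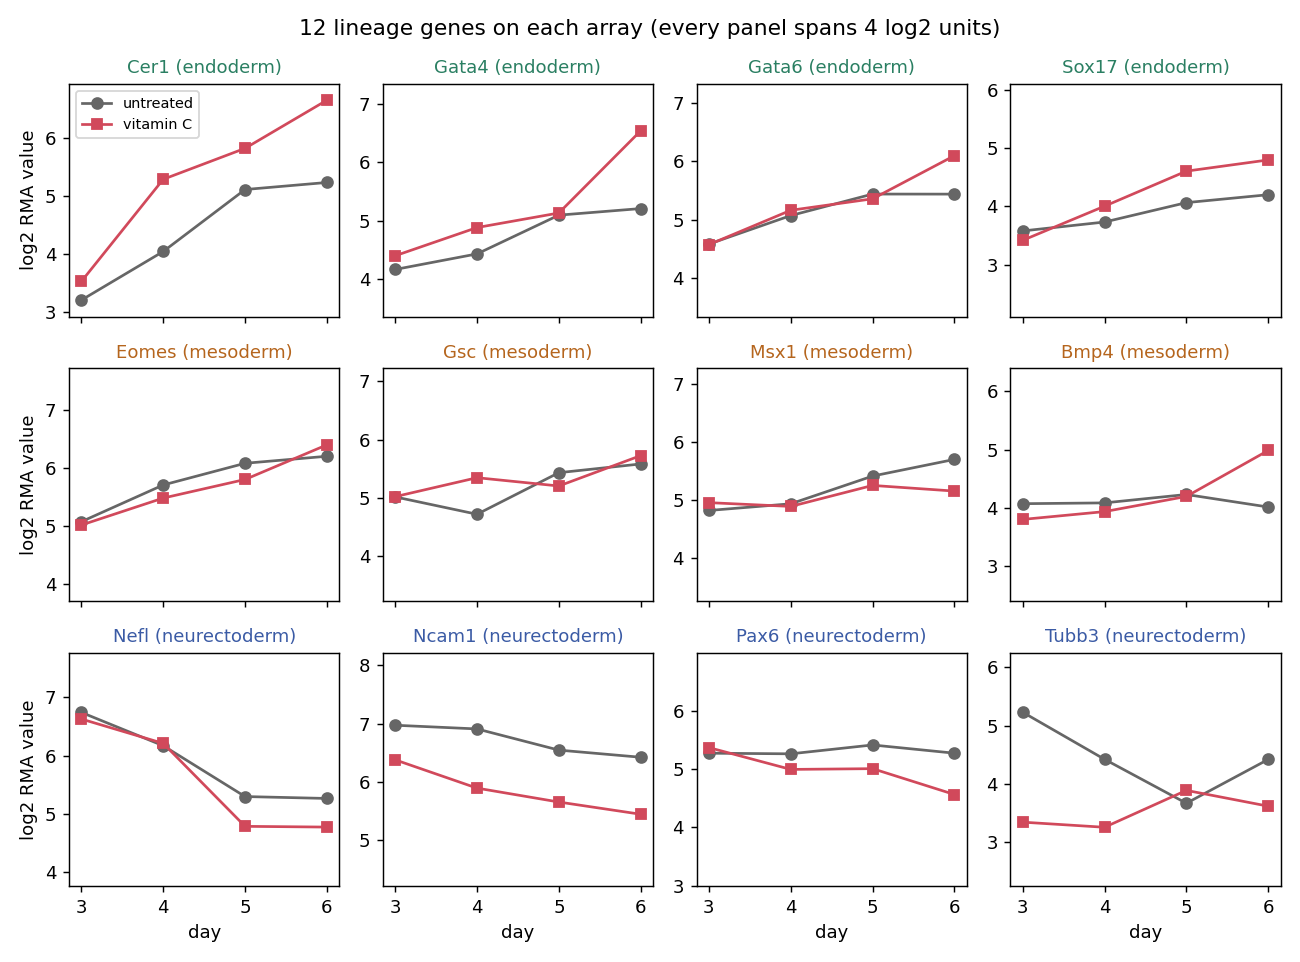
Log2 RMA value (y axis, 4 log2 units in every panel) of 12 lineage genes against day (x axis), with grey circles for untreated and red squares for vitamin C arrays, 1 array a point. Cer1 reached 6.64 and Gata4 6.54 in the vitamin C array of day 6, against 5.23 and 5.21 untreated, while Nefl fell to 4.77 and 5.27.

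Of the streak and mesoderm genes, Eomes (probe set 10589994) had the steadiest rise. Eomes encodes a T-box factor needed for definitive endoderm and for the exit of mesoderm from the streak. Its values were 5.08, 5.71, 6.08 and 6.20 untreated and 5.02, 5.48, 5.80 and 6.39 with vitamin C. Each array lay above that of the day before in both courses, and the vitamin C array was the lower one up to day 5. The slope was 0.37 ± 0.07 per day untreated (adjusted p = 0.0228) and 0.45 ± 0.07 with vitamin C (adjusted p = 0.00401), with a difference of 0.07 ± 0.10 (adjusted p = 0.824). The untreated slope did not pass without the array of day 3 (0.25, adjusted p = 0.351), 5 (0.36, adjusted p = 0.056) or 6 (0.50, adjusted p = 0.233), nor the vitamin C slope without that of day 3 (0.46, adjusted p = 0.0503) or 6 (0.39, adjusted p = 0.12).

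Gsc, a homeobox gene of the organizer and anterior streak, passed in the shared slope only (0.22 ± 0.06 per day, adjusted p = 0.0459). Its values were 5.02, 4.72, 5.43 and 5.58 untreated and 5.02, 5.35, 5.20 and 5.72 with vitamin C, with a dip on day 4 in one course and on day 5 in the other. This call was lost in 10 of 18 alternative settings, among them repeated quantile normalization (0.21, adjusted p = 0.0609) and the leaving out of the untreated array of day 5 (0.21, adjusted p = 0.0765) or 6 (0.20, adjusted p = 0.162) or the vitamin C array of day 3 (0.23, adjusted p = 0.12), 4 (0.23, adjusted p = 0.0521) or 6 (0.20, adjusted p = 0.182).

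Msx1, a homeobox gene and BMP target of posterior mesoderm and neural crest, rose untreated by 0.31 ± 0.07 per day (adjusted p = 0.0437). Its values were 4.82, 4.94, 5.41 and 5.70 untreated and 4.96, 4.89, 5.25 and 5.16 with vitamin C. The vitamin C slope was 0.10 ± 0.07 (adjusted p = 0.41) and the shared one 0.20 ± 0.06 (adjusted p = 0.0425, lost in 11 of 18 alternative settings). The difference of the slopes, -0.22 ± 0.09, did not pass (adjusted p = 0.421). The untreated call was lost in 7 of 15 alternative settings, with each untreated array left out in turn (0.29 to 0.38) and with arrays centred on their medians (0.29, adjusted p = 0.055), and without the vitamin C array of day 5 or 6, which leave the slope as it is (adjusted p = 0.0567 and 0.0551).

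Bmp4, the ligand that induces mesoderm from the extra-embryonic ectoderm, was high on a single array. It lay at 4.07, 4.08, 4.23 and 4.01 untreated and at 3.80, 3.93, 4.19 and 4.98 with vitamin C. The vitamin C slope was 0.38 ± 0.08 per day (adjusted p = 0.0139), and 0.20 without the array of day 6 (adjusted p = 0.375). The untreated slope was 0.00 ± 0.08, and the difference of the slopes, 0.38 ± 0.11, did not pass (adjusted p = 0.223). Msx2, like Msx1 a target of BMP signals, went from 3.82 to 4.51 with vitamin C and from 4.36 to 4.27 untreated, with no call (vitamin C slope 0.21, adjusted p = 0.0832).

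The remaining mesoderm genes did not pass. Mixl1, a homeobox gene of the streak and a Nodal target, was lowest on day 3 in both courses (3.61 and 4.10), highest on day 4 (4.86 and 5.18) and went down to 4.53 and 4.35 by day 6, a shape that a slope on day cannot capture (shared slope 0.14 ± 0.12). Both courses of Mixl1 share this shape, but no test of it was made. Mesp1 of early cardiac mesoderm lay between 3.10 and 3.62, Tbx6 of paraxial mesoderm between 3.54 and 4.16, and Kdr, the VEGF receptor of blood and vessel precursors, between 3.15 and 3.59. Hand2 of heart and limb mesoderm lay between 3.86 and 4.35, and Foxf1 of lateral plate mesoderm between 3.94 and 4.59. The shared slope of Foxf1, -0.15, missed the threshold (adjusted p = 0.0728) and passed after repeated quantile normalization and after centring (-0.17 in both, adjusted p = 0.0492 and 0.0483).

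**Figure D4:**
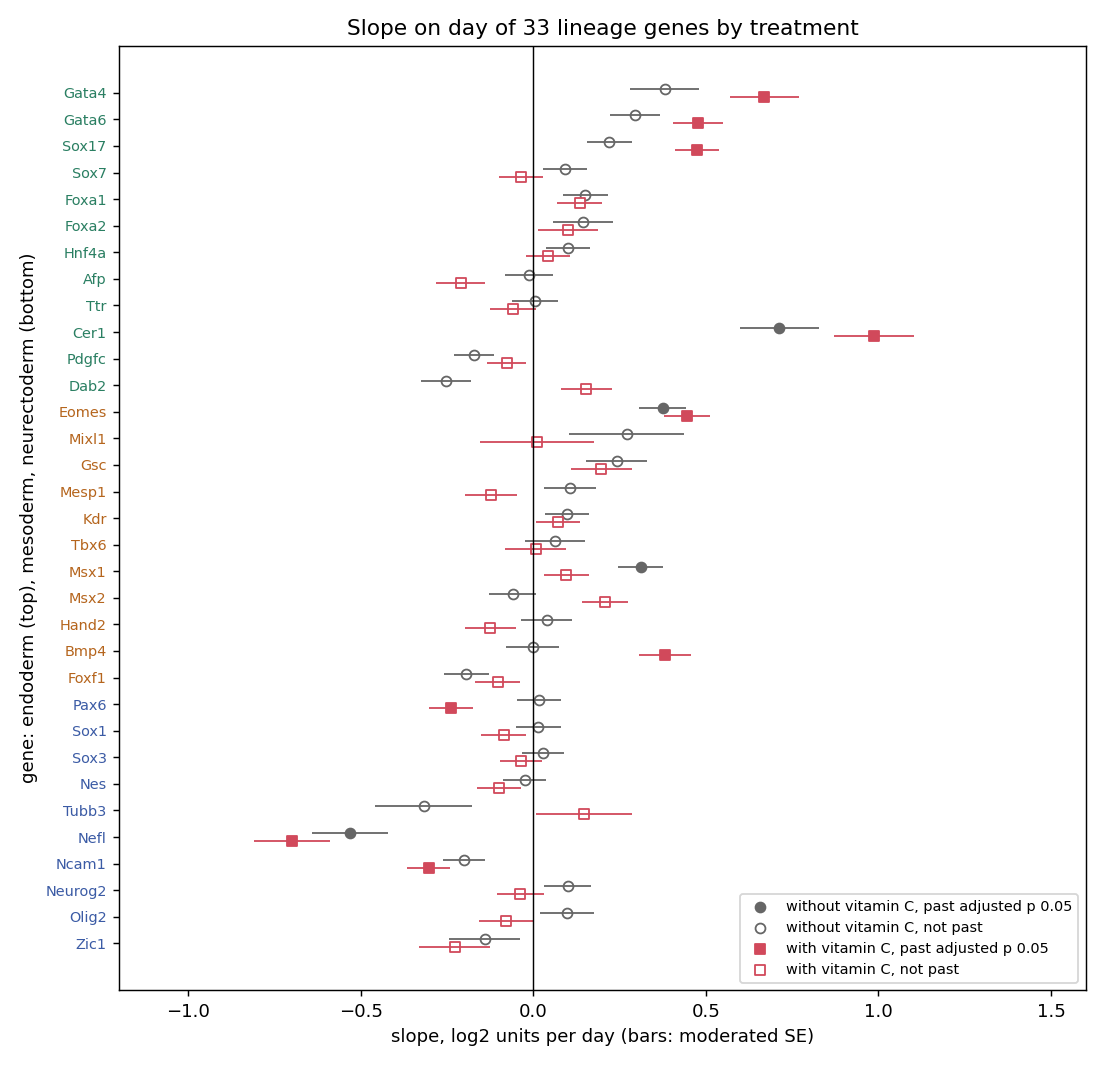
Slope on day in log2 units per day (x axis) of the 33 members (y axis, endoderm, mesoderm and neurectoderm from top to bottom), with grey circles without and red squares with vitamin C, bars for the moderated SE and filled symbols for an adjusted p under 0.05. Cer1 had the steepest slopes upwards, 0.71 and 0.99, and Nefl the steepest downwards, -0.53 and -0.70.

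Of the neurectoderm members, Nefl had the steepest slopes on day in both treatments. Nefl (probe set 10416175) encodes the neurofilament light chain of axons. Its values were 6.74, 6.17, 5.30 and 5.27 untreated and 6.63, 6.21, 4.79 and 4.77 with vitamin C. In both courses the arrays of days 5 and 6 lay below those of days 3 and 4. From day 3 to day 6 Nefl was 2.78-fold lower untreated and 3.62-fold lower with vitamin C, with slopes of -0.53 ± 0.11 per day (adjusted p = 0.0416) and -0.70 ± 0.11 (adjusted p = 0.00479). The slopes differed by -0.17 ± 0.16 (adjusted p = 0.731). The untreated slope did not pass when any 1 of the 4 untreated arrays was left out (-0.72 to -0.45), nor the vitamin C slope without the array of day 3 (-0.72, adjusted p = 0.0614).

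Ncam1 (probe set 10593293), an adhesion molecule of the immunoglobulin family of neural and some mesenchymal cells, fell with day where vitamin C was present (-0.30 ± 0.06 per day, adjusted p = 0.0148) and had -0.20 ± 0.06 untreated (adjusted p = 0.138). Its values were 6.97, 6.91, 6.54 and 6.42 untreated and 6.38, 5.89, 5.65 and 5.44 with vitamin C. Both courses went down every day, and the difference of the slopes was -0.10 ± 0.09 (adjusted p = 0.702). The vitamin C slope did not pass without the array of day 3 (-0.22, adjusted p = 0.209) or of day 6 (-0.36, adjusted p = 0.114).

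Pax6, a paired box factor of eye and forebrain, was 5.27, 5.26, 5.41 and 5.27 untreated and 5.37, 4.99, 5.01 and 4.56 with vitamin C. It fell with vitamin C (-0.24 ± 0.06 per day, adjusted p = 0.0438), which was lost in 7 of 15 alternative settings. These were the settings without any 1 untreated array, which leave the slope as it is (adjusted p from 0.0648 to 0.0665), or without the vitamin C array of day 3 (-0.22), 5 (-0.26, adjusted p = 0.0503) or 6 (-0.18). The untreated slope was 0.02 ± 0.06, and the difference of the slopes did not pass (-0.26 ± 0.09, adjusted p = 0.341).

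Counted by treatment, 3 members rose and 1 fell in the untreated slope (Cer1, Eomes and Msx1 up, Nefl down), against 0.782% of all genes rising and 0.968% falling. With vitamin C 6 rose (Gata4, Gata6, Sox17, Cer1, Eomes and Bmp4) and 3 fell (Pax6, Nefl and Ncam1), against 5.25% and 3.39% of all genes. The 4 untreated calls became 0 without the untreated array of day 3 or 6, 2 without that of day 4 and 1 without that of day 5, and the 9 calls with vitamin C became 3 without the vitamin C array of day 3 or 6. The 2 counts are not shown to differ, since no member passed the test of a difference between the slopes. In limma 0 of 33 members had a difference that grew or shrank with day, against 0.0652% of all genes with growth and 0% with shrinkage. At an unadjusted p under 0.05 there were 7 members (Sox17, Dab2, Msx1, Msx2, Bmp4, Pax6 and Tubb3), against 2244 of all 19938 genes, and with day as a factor (a replicate block) the count was 0 as well.

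The next comparison asked which lineage genes differed between the treatments over all 4 days (limma, with day as a factor). Of the 33 members 1, Ncam1, was lower with vitamin C, 0 were higher and 32 did not pass, against 0.537% of all genes higher and 0.216% lower. Ncam1 differed by -0.87 ± 0.11 (log2, moderated SE, adjusted p = 0.017), which is 1.83-fold, and its 4 vitamin C values all lay below the 4 untreated ones. The share of all genes with such a separation was not counted. The daily differences were -0.59, -1.02, -0.89 and -0.98, with an SD of 0.19. The call did not hold without day 4 (-0.82, adjusted p = 0.139), without day 5 (-0.86, adjusted p = 0.118) or with day left out of the model (adjusted p = 0.209). With that marker mean replacing day the difference was -0.56 (adjusted p = 0.214). The median of these markers was -0.38 in the same comparison.

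Cer1 was higher on all 4 days without passing: the differences were 0.32, 1.24, 0.71 and 1.41 and their mean 0.92 ± 0.17 (adjusted p = 0.0576). Cer1 passed in 4 of 13 alternative settings and missed in 9. It passed without day 3 (1.12, adjusted p = 0.0155) and with trend and robust options (adjusted p = 0.021). It also passed without the dimmest 25% of genes (adjusted p = 0.0497) and with day as a number (adjusted p = 0.0499). It missed when each later day was left out in turn (0.76 to 0.99, adjusted p from 0.117 to 0.267). Repeated quantile normalization (adjusted p = 0.0749), centring (adjusted p = 0.058) and leaving day out of the model (adjusted p = 0.76) were also among the misses. With the marker mean in place of day the difference was -0.081 (adjusted p = 0.963). With day as a factor, as a number or left out the difference was the same 0.92, and only its adjusted p moved.

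**Figure D5:**
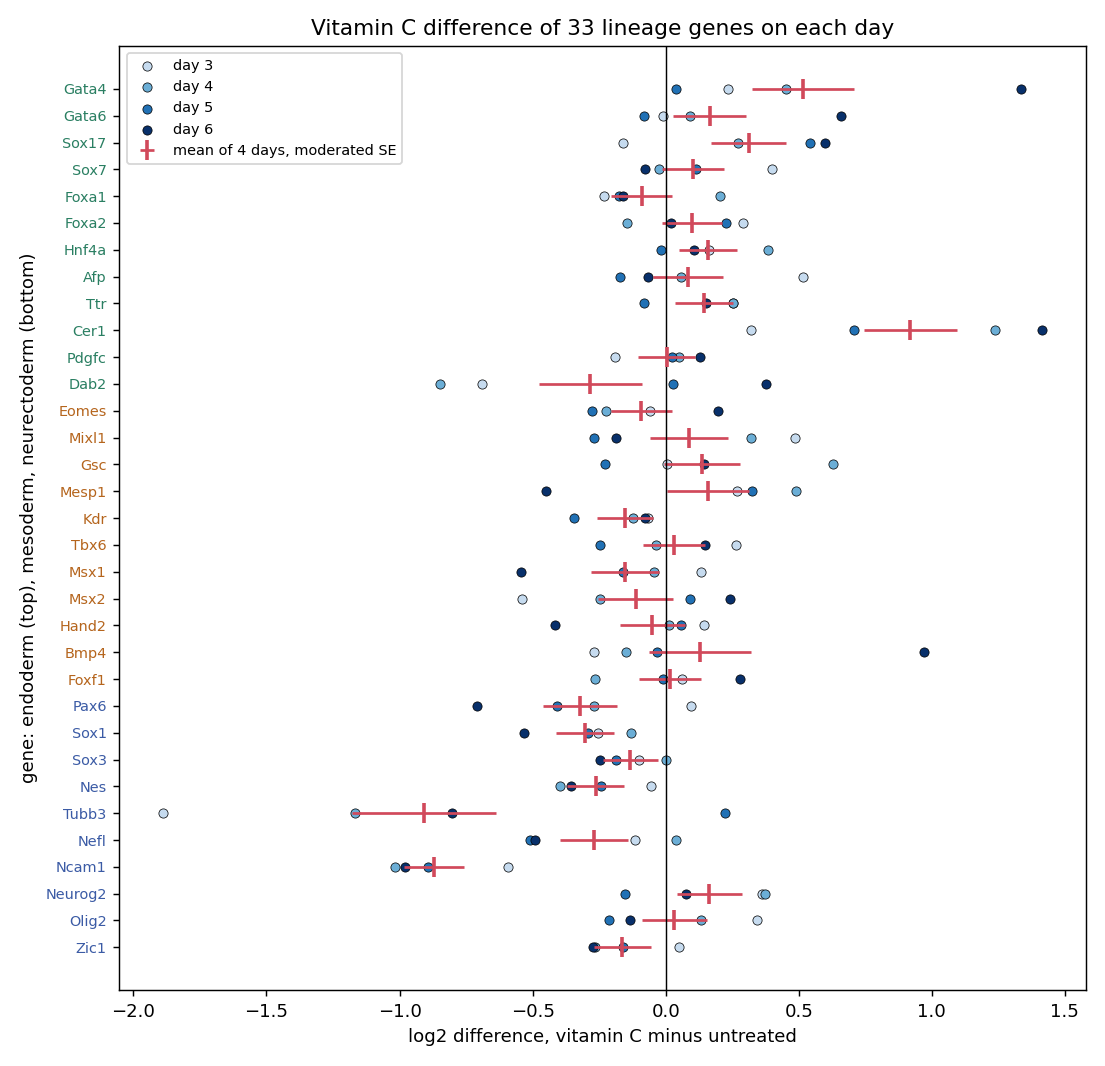
Log2 difference between the vitamin C and the untreated array (x axis) of the 33 members (y axis, endoderm, mesoderm and neurectoderm from top to bottom), with 1 point a day in darker blue from day 3 to day 6, and a red mark with a bar for the mean of 4 days and its moderated SE. All 4 points of Ncam1 lie between -1.02 and -0.59, and those of Cer1 between 0.32 and 1.41.

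Tubb3, which encodes a tubulin of neurons, had a mean difference of -0.91 ± 0.27, which did not pass (adjusted p = 0.191). Its values were 5.23, 4.42, 3.67 and 4.42 untreated and 3.34, 3.26, 3.89 and 3.62 with vitamin C. The differences of -1.89, -1.17, 0.22 and -0.80 changed sign on day 5, with an SD of 0.88. Gata4 was higher on all 4 days (mean 0.51 ± 0.19, adjusted p = 0.297), with 1.33 on day 6 and 0.04 on day 5. Sox17 had 0.31 ± 0.14 (adjusted p = 0.402) and Gata6 0.17 ± 0.14 (adjusted p = 0.7).

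Several early neural genes were slightly lower with vitamin C on most days. Sox1, a marker of neural plate cells, was lower on all 4 days (-0.30 ± 0.11, adjusted p = 0.281), from 6.10 to 6.27 untreated and from 5.74 to 6.11 with vitamin C. Nes, the intermediate filament of neural progenitors, was also lower on all 4 days (-0.26 ± 0.11, adjusted p = 0.351), and Pax6 on 3 (-0.32 ± 0.14, adjusted p = 0.379). None of these passed, and the groups of Sox1 overlapped. Sox3, a relative of Sox1, had -0.13 ± 0.10, and Zic1, a zinc finger factor of dorsal neural tube, -0.16 ± 0.11. The proneural gene Neurog2 had 0.16 ± 0.12 and Olig2, a factor of motor neuron and oligodendrocyte precursors, 0.03 ± 0.12. Of the 10 neurectoderm members 8 lay below 0, with a median of -0.27, against 10 of 12 endoderm members above 0 with a median of 0.12. The 11 mesoderm members had 6 above 0 and a median of 0.02, and the median of all genes was -0.01 with 51.8% of them below 0. Of 38 other neurectoderm genes 21 lay below 0 with a median of -0.02, and of 28 other endoderm genes 17 lay above 0 with a median of 0.09.

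By day, the median difference of the neurectoderm members was -0.08, -0.20, -0.23 and -0.42 on days 3 to 6, that of the endoderm members 0.20, 0.15, 0.03 and 0.14, and that of the mesoderm members 0.06, -0.05, -0.16 and 0.14. All genes had medians from -0.03 to 0.02, and the other neurectoderm genes from -0.05 to 0.01. These medians rest on 1 array per treatment and day and were not tested.

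On single days, where there is no replicate, few members reached a 2-fold difference. On day 3 Tubb3 was at least 2-fold lower and 0 members were higher (0.301% and 0.371% of all genes). On day 4 Tubb3 and Ncam1 were lower and Cer1 was higher (0.451% and 0.642%). On day 5 there was 0 in either direction (0.266% lower and 0.963% higher). On day 6 Gata4 and Cer1 were higher and 0 members were lower (1.51% and 0.306%).

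Further genes of the same layers were examined as lists beside the members. In the shared slope 5.03% of all genes rose and 5.21% fell. Of 28 other endoderm genes 10 rose in the shared slope and 0 fell, with a median of 0.14 per day, against -0.01 for all genes. They were Prdm1 (0.86), Apoe (0.78), Otx2 (0.65), Lhx1 (0.62), Cxcr4 (0.42), Lrp2 (0.38), Tmprss2 (0.34), Rbp4 (0.33), Nid2 (0.31) and Foxq1 (0.28). Other genes of the list, among them Hhex, Dkk1, Amn and Cubn, did not pass in that slope. Otx2 and Lhx1 encode head organizer factors of the anterior visceral endoderm. Lhx1 was 3.93, 4.31, 5.27 and 5.24 untreated and 3.64, 4.21, 4.99 and 5.89 with vitamin C, and Otx2 went from 4.62 to 6.78 untreated and from 5.45 to 7.17 with vitamin C. Both rose in each treatment (adjusted p = 0.0166 and 0.000807 for Lhx1, 0.0018 and 0.00119 for Otx2). Prdm1 and Otx2 are also known outside endoderm, in germ cell precursors and in the epiblast and forebrain, and Apoe in fibroblasts and macrophages. Apoe alone of this list was higher with vitamin C over days (0.81 ± 0.14, adjusted p = 0.0391).

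Of 37 other mesoderm genes 4 rose in the shared slope, Flt1 (0.56), Dll1 (0.37), Fgf8 (0.34) and Nodal (0.22), and 1, the activin antagonist gene Fst (-0.25), fell, with a median of 0.04. Nodal, the ligand that Cer1 and the Lefty proteins restrain, was 5.36, 5.62, 5.71 and 5.82 untreated and 5.35, 5.87, 5.93 and 6.32 with vitamin C. Of 38 other neurectoderm genes 3 rose, Otx2 again, Map2 (0.33) and Msi1 (0.30), and 2 fell, Cdh2 (-0.42) and Stmn2 (-0.36), with a median of 0.02. Among all genes 5.03% rose and 5.21% fell in the shared slope, and no test set the counts of these lists against those shares. Cdh2, the neural cadherin, is also a gene of mesenchymal cells, and Stmn2 one of growing axons. In the vitamin C effect over days 0 genes of either list passed in limma, while 10 of the 37 mesoderm and 5 of the 38 neurectoderm genes had an unadjusted p under 0.05, as did 12.7% of all genes. In the slope with vitamin C 10 of the other endoderm genes rose and 1, Apoa2 (-0.30), fell, 6 mesoderm genes rose, and 3 neurectoderm genes rose and 2 fell, against 5.25% of all genes rising and 3.39% falling. Untreated, 4, 2 and 1 rose and 0 fell, against 0.782% and 0.968% of all genes.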

How the data were processed

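Each array was hybridised with labelled cDNA from 100 ng of total RNA, per the labels' protocols. The deposited values, made by the authors from scanner readings, were taken as log2, since no scale is stated and the largest, 13.8, lies between the natural log (11.1) and the log2 (16) of the largest 16-bit reading. The submitters' processing notes name RMA and Partek, and no version, option or genome build is given. The platform annotation gave 21789 of 28853 probe sets 1 gene symbol. The brightest of these per gene was used, which left 19938 genes with no filter on dim ones. The 33 members all entered the tests.

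limma 3.58.1 (R 4.3.3) gave two-sided moderated tests. Adjusted p-values are Benjamini-Hochberg values across the 19938 genes and the threshold was 0.05. Errors are moderated standard errors. The vitamin C effect had day as a factor, which pairs the 2 arrays of a day (correlations of their deviations 0.371, 0.18, 0.125 and 0.475 on days 3 to 6). These deviations are from the mean of each treatment and still hold any change with day that both share. The correlations therefore do not measure pairing alone, and after the shared slope the correlation of the 2 arrays was -0.133. The slopes per treatment and their difference came from 1 model, and the shared slope from a model with treatment and day. Code was tested on simulated arrays. Members, lists and tests were chosen with earlier results of these data known. All members were to be named, and of the other lists the genes past the threshold. Alternatives covered normalization, dim genes, probe sets, variance options, the use of day, marker means and left-out arrays. Promoter entries were read from RefSeq tables with Python 3.11.15 and pandas 2.3.3.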

Additional observations from a re-analysis of the deposited data

Results flagged for a closer look

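Among 66 sets of 4 arrays (33 members in 2 treatments), 1 array stood far from the other 3 of its treatment, while chance gives about 1 in 20 such sets. It was the untreated array of day 5 for Pax6, at a log2 value of 5.41, with the next one at 5.27 and a gap of 0.93 of the whole range of the 4 arrays. That range is small, and the 4 days are not repeats of 1 condition.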

How the results depend on the processing

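In the vitamin C effect over days 1 member passed. It was 2 without the dimmest 25% of genes, with day as a number and with limma's trend and robust options, 0 with no replicate block (day left out) and with the marker mean in place of day, and 0 to 2 with 1 day left out. The untreated slope passed for 4 members, and for 0 to 4 with 1 array left out. The vitamin C slope passed for 9, and for 3 to 9 with 1 array left out. The shared slope passed for 9, for 3 to 8 with 1 array or 1 day left out, and for 0 with the marker mean beside day. With day as a random replicate block the 3 slopes passed for 4, 9 and 11 members. The growth of the difference passed for 0 members in every setting tried. Other settings kept these counts within 1.5 times. With the marker mean, 4 values changed sign, Foxf1 to 0.063, Gsc to -0.0056 and Msx1 to -0.060 per day, and Cer1 over days to -0.081. The causes were not tested. Values that passed in no setting changed sign in 13 to 33 of 358 to 493 cases per comparison. Repeated quantile normalization and centring moved the median of genes by at most 0.014 and 0.044. A planned change of log scale was not run because the values are logged. The number of arrays limits the precision; signal over background was not used here.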
